A study of Homo sapiens with 6 samples.

Results

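The signalling machinery of TGF-beta is described here by 10 genes that were chosen by symbol, among the 15379 symbols of the count table. They were the ligands TGFB1 and TGFB2, the latent-complex protein LTBP1, the receptors TGFBR1 and TGFBR2, the signal transducers SMAD2, SMAD3 and SMAD4, and the inhibitors SMAD7 and SKIL. All 10 had a row and all 10 passed the filter on low counts. Poly(A) RNA was sequenced from HaCaT cells, an immortalised line of human skin keratinocytes. One group spent 1 h a day at 41C on each of 3 days (3 libraries), and the other was treated at 37C on that schedule (3 libraries). No genetic change or other agent is named in the labels, and 1 cell line carried the whole comparison. Nothing in the labels tells whether replicates came from separate cultures, so every p-value reflects the spread among these libraries, which may be technical. The interval between the last exposure and RNA isolation is likewise not stated there. In such bulk samples, fewer cells of a type and less RNA per cell cannot be told apart.

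TGF-beta is secreted in a latent form, wrapped in its own propeptide and tethered to the matrix by a latent TGF-beta binding protein. Once released, it binds the type II receptor, which phosphorylates the type I receptor, which phosphorylates SMAD2 and SMAD3. These join SMAD4, enter the nucleus and switch genes on or off, among them the genes of their own inhibitors SMAD7 and SKIL. In epidermis the pathway is known for holding back keratinocyte proliferation and for inducing matrix and migration genes in wounds.

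Library totals ran from 19659112 to 20856144 counts. Libraries of the same temperature correlated at 0.992 to 0.995 and libraries of different temperatures at 0.992 to 0.994 (Pearson's r across genes on the log2 CPM scale). The 8 keratinocyte markers were all detected, and their summed level was 7949 to 8199 CPM at 41C and 7006 to 7679 CPM at 37C. The 6 fibroblast markers measured summed to 15.9 to 18.0 CPM at 41C and 13.9 to 16.7 CPM at 37C, and the 4 melanocyte markers to 5.09 to 6.21 CPM at 41C and 4.91 to 5.06 CPM at 37C. The 3 endothelial markers summed to 18.7 to 22.7 CPM at 41C and 20.7 to 30.3 CPM at 37C, and the 4 leukocyte markers to 13.5 to 17.0 CPM at 41C and 13.9 to 17.7 CPM at 37C. Single genes, named after their values were seen, made up most of these 2 sums. CDH5 averaged 17.8 CPM at 41C and 22.8 CPM at 37C, and CD68 15.1 CPM at 41C and 15.3 CPM at 37C. The keratinocyte marker KRT15, also named afterwards, went against its sum, at 648 CPM at 41C and 785 CPM at 37C (edgeR adjusted p = 0.303). The lists also held the melanocyte genes TYR, MLANA and SOX10, the fibroblast gene COL1A2 and the endothelial gene KDR. These had no row under those symbols in the count table and so are not in the sums. The part of these markers in the results was not tested.

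None of the 10 genes passed the threshold between the temperatures. At an adjusted p of 0.05 in edgeR's quasi-likelihood test, 0 of 10 were called higher and 0 lower, against 1.09% of the 12056 genes tested (131 genes; 0.821% higher and 0.265% lower). DESeq2 and limma-voom also called 0 of the 10, against 1.53% and 1.02% of all genes. With an unadjusted p under 0.05 there were 3, TGFB1, TGFB2 and SMAD3, and 13.7% of all genes tested had such a p. The log2 change at 41C over 37C was positive for 8 of the 10, with a median of 0.09, against 50.9% of all genes and a median of 0.00. It lay between -0.05 and 0.23, so that the estimate for each of the 10 genes was under 1.2-fold. The 95% intervals of TGFB1, TGFB2, LTBP1, SMAD7 and SKIL extended past 1.2-fold. In 3 genes, TGFB2, SMAD3 and SMAD7, the 3 libraries at 41C lay above the 3 at 37C, as in 11.2% of all genes tested, and in 0 did they lie below, as in 8.84%. Levels are given as CPM (counts per 1000000 counts, scaled by TMM factors) and changes as log2 change ± SE with the 95% interval, which is not adjusted for the number of genes.

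**Figure D1:**
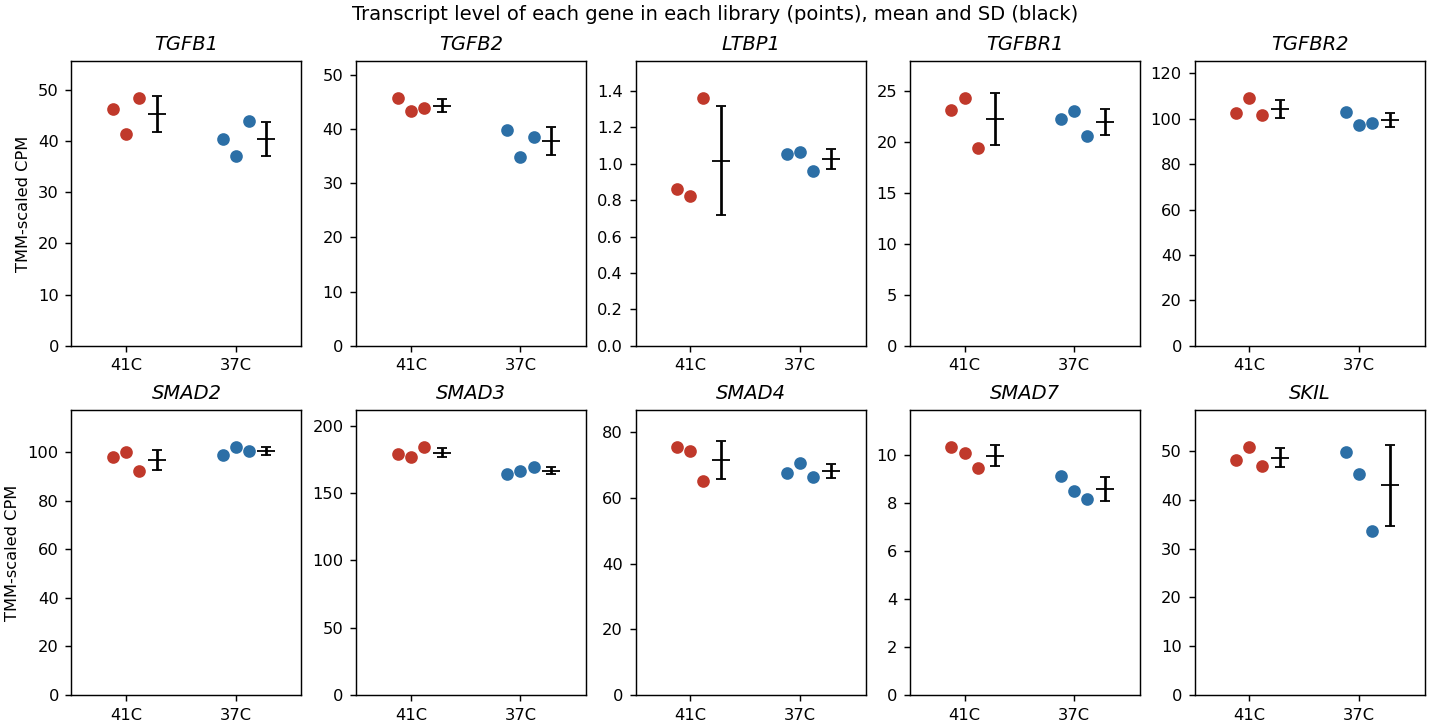
TMM-scaled CPM (vertical axes, each from 0) of the 10 genes in the 3 libraries at 41C (red) and the 3 at 37C (blue), with mean and SD in black. The groups do not overlap for TGFB2, SMAD3 and SMAD7, and 1 library at 37C is low for SKIL (33.6 CPM).

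Among the ligands, TGFB2 had the smallest p of the 10 genes. TGFB2 encodes a TGF-beta isoform of epithelia and development (chr1:218346235-218444619, plus strand, GRCh38). Its level was 45.7, 43.3 and 43.9 CPM at 41C, against 39.9, 34.9 and 38.5 CPM at 37C. Every library at 41C was above every library at 37C. TGFB2 averaged 44.3 ± 1.23 CPM at 41C and 37.8 ± 2.57 CPM at 37C (SD, n = 3 each). This log2 change of 0.23 ± 0.07, a 1.17-fold difference with an interval of 0.09 to 0.38, did not pass (edgeR adjusted p = 0.124; unadjusted p = 0.00389, rank 377 of 12056).

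TGFB1 encodes the most widely expressed isoform (chr19:41301587-41353911, minus strand). It had 46.1, 41.3 and 48.3 CPM at 41C, against 40.3, 37.1 and 43.8 CPM at 37C. The groups overlapped, since replicate 2 at 41C was below replicate 3 at 37C. Its means were 45.3 ± 3.56 CPM at 41C and 40.4 ± 3.37 CPM at 37C (SD, n = 3 each). On the log2 scale TGFB1 differed by 0.16 ± 0.08 (interval 0.00 to 0.33; edgeR adjusted p = 0.3605). The calls of both ligands depended on 1 library. Without 37C replicate 3 both passed, TGFB1 at 0.23 ± 0.07 (edgeR adjusted p = 0.0461) and TGFB2 at 0.25 ± 0.07 (edgeR adjusted p = 0.0245), in a fit that called 6.62% of all genes (805 genes). In the other 16 alternative fits neither passed.

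LTBP1 encodes a protein that holds latent TGF-beta in the matrix (chr2:32946972-33399509, plus strand). It was close to the detection limit, with 18, 17 and 27 counts at 41C, against 21, 21 and 19 counts at 37C. The groups overlapped, and replicate 3 at 41C stood above the other libraries at 1.36 CPM. Its log2 change of -0.02 ± 0.30 did not pass (edgeR adjusted p = 0.991). Its interval, -0.66 to 0.63, leaves room for differences of up to about 0.631-fold or 1.54-fold, so a moderate change was not detectable at this depth. Its relatives LTBP3 and LTBP4, named after their values were seen, had higher levels. LTBP3 averaged 67.5 CPM at 41C and 64.1 CPM at 37C (log2 change 0.07 ± 0.07, edgeR adjusted p = 0.679). LTBP4 averaged 45.7 CPM at 41C and 46.3 CPM at 37C (-0.02 ± 0.06, edgeR adjusted p = 0.939).

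The starts of 4 genes are shown because they cover both ligands and both feedback inhibitors, with 1 of each pair separated between the temperatures (TGFB2, SMAD7) and 1 overlapping (TGFB1, SKIL). The sequences are RefSeq windows on GRCh38.p14, from 250 bases before to 50 bases after a gene's start, read 5′ to 3′ on the gene's strand. Capitals mark 3 motifs on either strand: CAGAC (the SMAD box), TATAAA (the TATA box) and GGCGGG (the GC box). The windows are chr1:218345086-218345385 (plus) for TGFB2, chr19:41353873-41354172 (minus) for TGFB1, chr18:48950916-48951215 (minus) for SMAD7, the first of its 3 windows, and chr3:170357465-170357764 (plus) for SKIL.
TGFB2: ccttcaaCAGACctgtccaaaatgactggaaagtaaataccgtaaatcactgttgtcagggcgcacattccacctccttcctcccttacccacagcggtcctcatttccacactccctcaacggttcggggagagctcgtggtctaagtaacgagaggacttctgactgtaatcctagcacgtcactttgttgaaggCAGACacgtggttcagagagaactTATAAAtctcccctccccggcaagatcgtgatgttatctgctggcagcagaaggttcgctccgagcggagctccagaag
TGFB1: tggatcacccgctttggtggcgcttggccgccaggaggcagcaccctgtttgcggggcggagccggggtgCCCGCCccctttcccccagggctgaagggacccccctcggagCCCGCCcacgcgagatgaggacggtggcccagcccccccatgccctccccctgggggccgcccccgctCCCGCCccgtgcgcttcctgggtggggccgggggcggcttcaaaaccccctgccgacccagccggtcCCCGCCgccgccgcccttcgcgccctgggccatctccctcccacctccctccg
SMAD7: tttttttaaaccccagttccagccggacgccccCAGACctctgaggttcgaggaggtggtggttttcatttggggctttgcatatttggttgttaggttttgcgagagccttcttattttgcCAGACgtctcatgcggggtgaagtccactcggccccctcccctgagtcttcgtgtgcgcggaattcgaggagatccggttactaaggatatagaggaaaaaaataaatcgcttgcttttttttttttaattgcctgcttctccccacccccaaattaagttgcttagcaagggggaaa
SKIL: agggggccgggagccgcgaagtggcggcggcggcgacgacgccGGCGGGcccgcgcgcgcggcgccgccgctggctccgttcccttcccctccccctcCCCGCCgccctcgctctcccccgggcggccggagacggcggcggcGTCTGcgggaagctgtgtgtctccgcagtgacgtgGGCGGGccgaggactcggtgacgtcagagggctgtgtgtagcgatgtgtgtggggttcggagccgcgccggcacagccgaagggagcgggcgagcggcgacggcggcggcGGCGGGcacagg

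The ligand genes differed in these windows. TGFB2 had 1 TATA box, which began 29 bases before its RefSeq start, 2 SMAD boxes and 0 GC boxes. TGFB1 had 4 GC boxes, 0 TATA boxes and 0 SMAD boxes. SMAD7 had 2 SMAD boxes and neither of the other motifs in the window shown. Of its other windows, chr18:48949284-48949583 had 1 of each of the 3 motifs and chr18:48942758-48943057 had 0. SKIL, with 1 window, had 1 SMAD box and 4 GC boxes. RefSeq starts need not match the GENCODE positions given with each gene. The whole TGFB2 window lies upstream of the GENCODE position of TGFB2. The SMAD7 window shown lies inside the GENCODE position of SMAD7. Among all 35116 windows, 45.3% held a SMAD box, 11.5% a TATA box and 45.0% a GC box. Of the 27 windows of the 10 genes, 14 held a SMAD box, 2 a TATA box and 12 a GC box. SMAD boxes occurred for 6 of the 10 genes. The groups did not overlap for TGFB2, SMAD3 and SMAD7 of these and overlapped for TGFBR1, LTBP1 and SKIL. Whether motifs go with the changes was not tested. The palindrome GTCTAGAC, an element bound by SMAD proteins, was in 0.202% of all windows and in 0 of the 27 windows of the 10 genes. A match describes letters and not a bound site, and binding was not measured.

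The 2 receptor subunits differed little between the temperatures. TGFBR1 encodes the type I receptor kinase that phosphorylates SMAD2 and SMAD3 (chr9:99104038-99154192, plus strand). It had 23.1, 24.3 and 19.4 CPM at 41C, against 22.2, 23.1 and 20.6 CPM at 37C. The range at 37C lay inside the range at 41C. TGFBR1 differed by 0.02 ± 0.09 on the log2 scale, with an interval of -0.18 to 0.22 (edgeR adjusted p = 0.953), and its sign turned when single libraries were left out.

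TGFBR2 encodes the type II receptor kinase that binds the ligand first (chr3:30606502-30694142, plus strand). It had 103, 109 and 102 CPM at 41C, against 103, 97.2 and 98.4 CPM at 37C. The groups overlapped through replicate 1 at 37C. TGFBR2 differed by 0.07 ± 0.05 on the log2 scale, with an interval of -0.04 to 0.18 (edgeR adjusted p = 0.605). The intervals of both receptor genes ended below a 1.2-fold higher level at 41C.

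**Figure D2:**
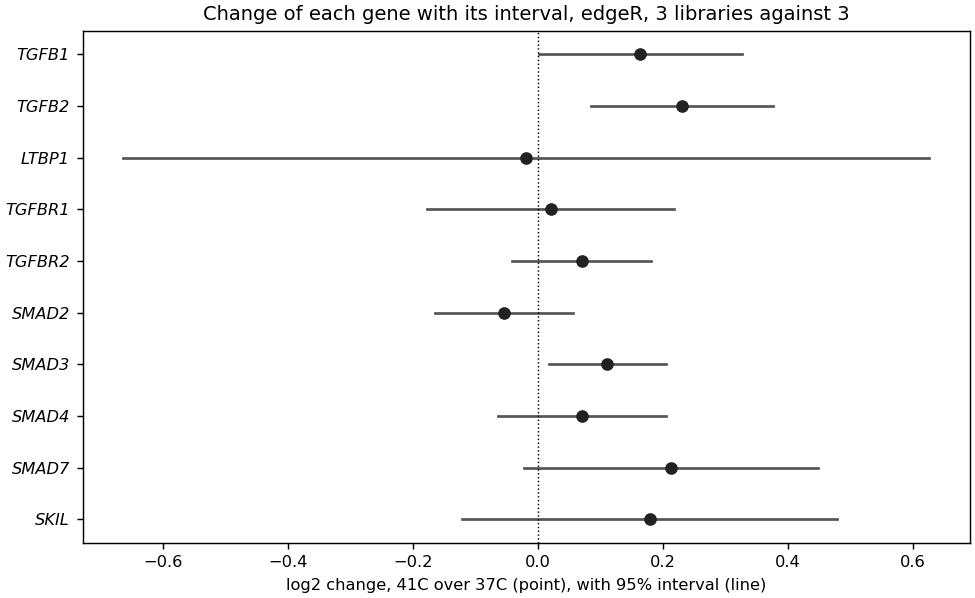
Log2 change at 41C over 37C (horizontal axis) of the 10 genes with the 95% interval of edgeR's quasi-likelihood test, 3 libraries against 3. The intervals of TGFB1, TGFB2 and SMAD3 lie above 0, that of LTBP1 is the widest (-0.66 to 0.63), and none of the 10 passed after adjustment over 12056 genes.

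Of the SMADs that carry the signal, SMAD3 was measured most closely. SMAD3 is the receptor-activated SMAD that binds DNA directly (chr15:67063763-67195195, plus strand). It had 179, 177 and 184 CPM at 41C, against 164, 167 and 169.5 CPM at 37C. All libraries at 41C were above all at 37C, with SDs of 3.58 CPM at 41C and 2.63 CPM at 37C. SMAD3 thus had a log2 change of 0.11 ± 0.04, a 1.08-fold difference with an interval of 0.02 to 0.20 (edgeR adjusted p = 0.280; unadjusted p = 0.0229).

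SMAD2 is the other receptor-activated SMAD of the pathway (chr18:47808957-47931146, minus strand). It had 98.2, 99.9 and 92.3 CPM at 41C, against 98.9, 102 and 101 CPM at 37C. The libraries of both groups overlapped, with replicate 3 at 41C the lowest. Its log2 change was -0.05 ± 0.05 (interval -0.16 to 0.06; edgeR adjusted p = 0.708). It became -0.15 after each library was corrected for its trend on gene length, still without passing (edgeR adjusted p = 0.308). The corrected value rests on the deposited length of SMAD2, 41648 bases, which is longer than 99.99% of tested genes.

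SMAD4 is the partner that both receptor-activated SMADs share with the BMP pathway (chr18:51028394-51085045, plus strand). It had 75.4, 74.3 and 65.0 CPM at 41C, against 67.7, 70.5 and 66.3 CPM at 37C. At 41C 2 libraries were above all at 37C and 1 was below them all. For SMAD4 the log2 change came to 0.07 ± 0.06 (interval -0.06 to 0.21; edgeR adjusted p = 0.685).

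SMAD7 and SKIL act against the pathway and are themselves SMAD target genes. SMAD7 blocks the type I receptor and recruits ubiquitin ligases to it (chr18:48919853-48952052, minus strand). It had 10.3, 10.1 and 9.47 CPM at 41C, against 9.14, 8.50 and 8.15 CPM at 37C. The groups did not overlap, and the means were 9.96 ± 0.440 CPM at 41C and 8.60 ± 0.498 CPM at 37C (SD, n = 3 each). The difference of 0.21 ± 0.11 on the log2 scale (interval -0.02 to 0.45) rested on 161 to 215 counts per library, and did not pass (edgeR adjusted p = 0.414).

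SKIL encodes SnoN, a co-repressor that binds SMAD complexes (chr3:170357678-170396835, plus strand). It had 48.1, 50.8 and 47.0 CPM at 41C, against 49.9, 45.4 and 33.6 CPM at 37C. Replicate 3 at 37C was the only low library, and the other 2 at 37C lay in or near the range at 41C. For SKIL the log2 change came to 0.18 ± 0.13 (interval -0.12 to 0.48; edgeR adjusted p = 0.612). Leaving out 37C replicate 3 gave 0.03, and leaving out 37C replicate 1 gave 0.29, where the low library weighed more.

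Per kilobase of gene length, the levels of the 10 genes spanned a 160.1-fold range. Gene lengths were taken from the deposited FPKM values. At 41C the order of mean levels, in CPM per kilobase, was SMAD3 (24.8), TGFB1 (21.5), TGFBR2 (15.7), SMAD4 (8.16), TGFB2 (7.45), SKIL (6.62), TGFBR1 (3.64), SMAD7 (2.69), SMAD2 (2.32) and LTBP1 (0.148). Only SMAD4 and TGFB2 had overlapping libraries among neighbours in that order. At 37C the order was the same but for SMAD2 (2.41) and SMAD7 (2.32), whose libraries overlapped, as did those of TGFB2 and SKIL. The place of SMAD2 rests on its length. The deposited tables gave it 41648 bases, longer than 99.99% of tested genes, and its annotated transcripts ran from 527 to 34526 bases, so cells that use a short form would have a higher level than stated.

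**Figure D3:**
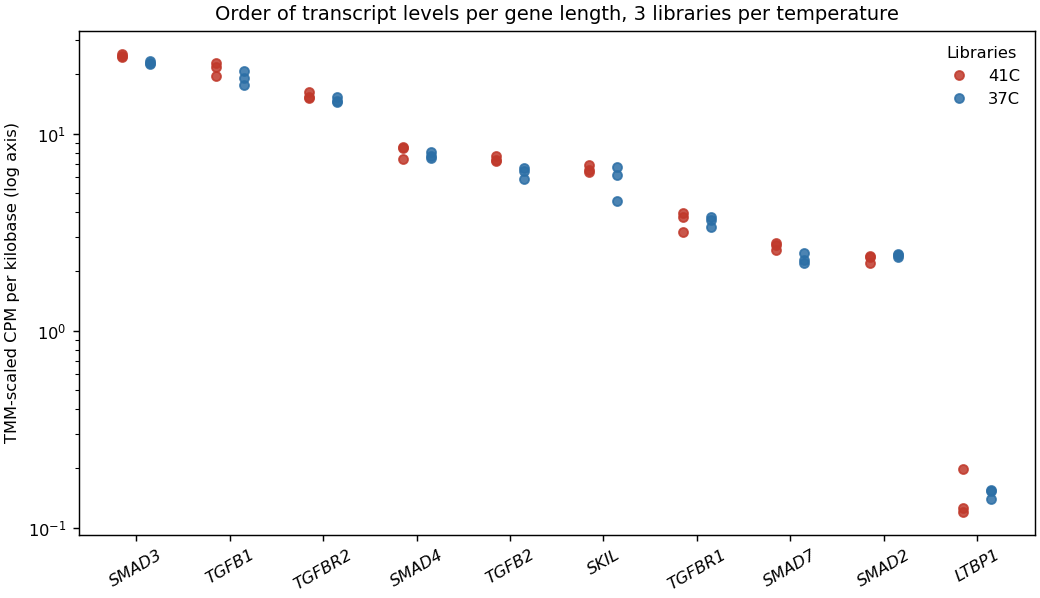
TMM-scaled CPM per kilobase (log axis) of the 10 genes in the libraries at 41C (red) and at 37C (blue), ordered by the mean at 41C. SMAD3 is at the top (24.8 at 41C) and LTBP1 at the bottom (0.148 at 41C), with the 2 temperatures close together for each gene.

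The balance between paired genes was compared within each library by 4 ratios of levels per kilobase. With 3 libraries against 3, the exact two-sided permutation test cannot give a p below 0.1. SMAD3 to SMAD2 was 10.5, 10.2 and 11.4 at 41C, against 9.52, 9.37 and 9.66 at 37C. The groups did not overlap, and the log2 difference of 0.17 had the smallest p the test can give (exact p = 0.1; adjusted over the 4 ratios, 0.4). Counted without length scaling, as added after the deposited length was seen, SMAD3 had 1.83, 1.77 and 1.99 times the counts of SMAD2 at 41C, against 1.66, 1.63 and 1.68 times at 37C.

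The ligand, receptor and inhibitor ratios overlapped between the temperatures. TGFB2 to TGFB1 was 0.350, 0.370 and 0.321 at 41C, against 0.350, 0.333 and 0.311 at 37C (log2 difference 0.07, exact permutation p = 0.4). TGFBR2 to TGFBR1 was 4.07, 4.12 and 4.81 at 41C, against 4.25, 3.86 and 4.38 at 37C (log2 difference 0.05, exact permutation p = 0.7). SMAD7 to SMAD3 was 0.113, 0.112 and 0.101 at 41C, against 0.109, 0.1002 and 0.0945 at 37C (log2 difference 0.10, exact permutation p = 0.2). In each library the type II receptor transcript was thus several times as abundant per kilobase as the type I transcript.

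**Figure D4:**
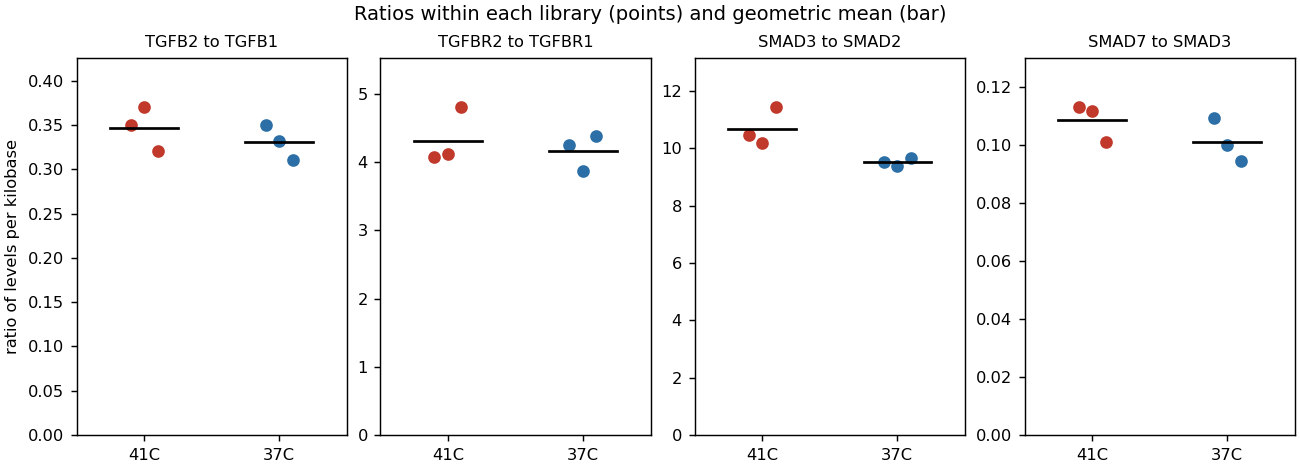
Ratio of levels per kilobase (vertical axes, from 0) within each library at 41C (red) and 37C (blue) for 4 pairs of genes, with the geometric mean as a bar. The groups do not overlap for SMAD3 to SMAD2, at 10.2 to 11.4 against 9.37 to 9.66.

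Around the 10 genes, other parts of the pathway were read from lists. Of 20 tested genes for other ligands and for the processing, storage and activation of TGF-beta, 0 passed in edgeR (1.09% of all genes tested), 7 had an unadjusted p under 0.05 (13.7% of all), and the median log2 change was 0.10. DESeq2 called 3 of them higher, and 1.53% of all genes in either direction. FURIN, a protease that cleaves the TGF-beta precursor, averaged 87.0 ± 3.35 CPM at 41C and 74.2 ± 4.67 CPM at 37C (log2 change 0.23 ± 0.06, edgeR adjusted p = 0.0806). LTBP2, a relative of LTBP1, averaged 24.1 ± 2.15 CPM at 41C and 19.1 ± 0.837 CPM at 37C (0.34 ± 0.09, edgeR adjusted p = 0.0806). THBS1, which encodes the activator thrombospondin-1, averaged 1765 ± 129 CPM at 41C and 1362 ± 149 CPM at 37C (0.37 ± 0.09, edgeR adjusted p = 0.0984). ITGB6, the subunit of an integrin that releases active TGF-beta in epithelia, averaged 143.9 ± 7.93 CPM at 41C and 118 ± 13.3 CPM at 37C (0.28 ± 0.08, edgeR adjusted p = 0.120). The groups did not overlap for FURIN, LTBP2, THBS1 or ITGB6. Of the 20 tested genes, 5 lay higher at 41C without overlap (11.2% of all genes tested). The 1 that lay lower without overlap (8.84% of all) was INHBB. Without 37C replicate 3, 3 genes of the list passed in a fit that called 6.62% of all genes, and without 37C replicate 1, 3 passed in a fit that called 1.84%. ITGB6 passed in 7 of the 17 alternative fits (adjusted p = 0.0332 with DESeq2), FURIN and LTBP2 in 4 each, and THBS1 in 1 (adjusted p = 0.000246 with DESeq2).

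The ligand genes TGFB3, INHBA and INHBB were scarce. TGFB3, the third isoform, averaged 0.652 ± 0.117 CPM at 41C and 0.842 ± 0.454 CPM at 37C, a log2 difference of -0.36 ± 0.40 (edgeR adjusted p = 0.746). INHBA, the activin A subunit, averaged 2.73 ± 0.355 CPM at 41C and 2.62 ± 0.803 CPM at 37C (0.05 ± 0.24, edgeR adjusted p = 0.953). The most negative value of the list, -1.31 ± 0.46 for the activin subunit INHBB, which was named after its values were seen, came from a mean of 0.346 CPM at 41C and 0.858 CPM at 37C (edgeR adjusted p = 0.199). GDF11, an activin-type ligand also named after its values were seen, was higher than these at 5.71 ± 0.694 CPM at 41C and 6.07 ± 1.02 CPM at 37C (-0.09 ± 0.16, edgeR adjusted p = 0.860). Per kilobase its mean was 3.56 CPM at 41C and 3.79 CPM at 37C, near that of TGFBR1.

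Of 14 tested genes for other receptors and receptor-level regulators, 0 passed in edgeR or DESeq2 (1.09% and 1.53% of all genes tested), 3 had an unadjusted p under 0.05 (13.7% of all), and the median log2 change was 0.08. TGFBRAP1, which binds the receptors and SMAD4, had 0.19 ± 0.06 (edgeR adjusted p = 0.175). ZFYVE9, known as SARA, presents SMAD2 and SMAD3 to the receptor and had 0.18 ± 0.07 (edgeR adjusted p = 0.296). ACVR1B, the activin type I receptor, averaged 26.7 ± 2.34 CPM at 41C and 23.5 ± 0.774 CPM at 37C (0.18 ± 0.08, edgeR adjusted p = 0.333). TGFBR3, the co-receptor betaglycan, averaged 0.145 CPM at 41C and 0.0504 CPM at 37C and was too low to be tested.

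Of 26 tested regulators of SMADs, 1 rose and 0 fell, where 0.821% of all genes tested were called higher and 0.265% lower. Their median was 0.06 on the log2 scale. An unadjusted p under 0.05 was found for 7 (13.7% of all). The groups did not overlap for 8, all higher at 41C (11.2% of all). The one that rose was PMEPA1, an inhibitor of receptor-activated SMADs and a target of the pathway, which averaged 152.7 ± 15.03 CPM at 41C and 90.6 ± 5.49 CPM at 37C (0.75 ± 0.07, edgeR adjusted p = 0.000555). CREBBP, a coactivator that SMADs recruit, had 0.19 ± 0.05 (edgeR adjusted p = 0.0617), and NEDD4L, a ubiquitin ligase of SMAD2 and SMAD3, had 0.17 ± 0.05 (edgeR adjusted p = 0.110). SKI, the co-repressor related to SKIL, averaged 38.6 ± 4.16 CPM at 41C and 32.4 ± 3.30 CPM at 37C (0.25 ± 0.09, edgeR adjusted p = 0.232). SMURF2, a ubiquitin ligase that works with SMAD7, had 0.10 ± 0.07 (edgeR adjusted p = 0.580). Without 37C replicate 3, 4 genes of the list passed, CREBBP and NEDD4L among them, in a fit that called 6.62% of all genes.

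No SMAD of the BMP arm passed. SMAD1 and SMAD5, the receptor-activated SMADs of BMP signals, differed by 0.03 ± 0.07 and 0.08 ± 0.09 on the log2 scale (adjusted p = 0.903 and 0.780 in edgeR). SMAD6, the inhibitory SMAD of that arm, averaged 7.71 ± 0.759 CPM at 41C and 8.82 ± 0.922 CPM at 37C (-0.19 ± 0.13, edgeR adjusted p = 0.541). Of the 3 tested, 0 passed in edgeR or DESeq2 (1.09% and 1.53% of all genes tested), and 0 had an unadjusted p under 0.05 (13.7% of all). A list of 3 genes is too short to be told apart from these shares.

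In the list of 22 tested genes known as TGF-beta targets in epithelial cells, 8 rose and 0 fell, and the list's median was 0.25 on the log2 scale; 0.821% of all genes tested were called higher. Besides PMEPA1 they included the fibronectin gene FN1 (0.33 ± 0.04, edgeR adjusted p = 0.00162) and MMP2, a gelatinase gene (0.32 ± 0.05, edgeR adjusted p = 0.00490). COL4A1, a type IV collagen chain gene, had 0.28 ± 0.05 (edgeR adjusted p = 0.0105), and TGFBI, a matrix protein gene, 0.23 ± 0.04 (edgeR adjusted p = 0.0205). The groups did not overlap for 15 of the 22 genes, 13 of them higher at 41C, against 20% of all genes tested in either direction. The 13 include ITGB6, which is also in the list of other ligands and activation. The 2 that were lower, ID1 (-0.47 ± 0.13) and ID3 (-0.29 ± 0.08), named after their values were seen, did not pass (edgeR adjusted p = 0.206 and 0.105). ID1 passed in 1 and ID3 in 4 of the 17 alternative fits. Both encode inhibitors of helix-loop-helix factors. The list does not separate genes that the pathway switches on from those it switches off. The count of 8 moved with single libraries: leaving out 41C replicate 2 gave 1, leaving out 37C replicate 2 gave 3, and leaving out 37C replicate 3 gave 14 (13 higher and 1 lower), in fits that called 0.0411%, 0.14% and 6.62% of all genes. Of the 5 genes named as rising, PMEPA1 alone passed without 41C replicate 2 (edgeR adjusted p of the others 0.0642 to 0.209), and PMEPA1 and FN1 passed without 37C replicate 2. COL4A1 and TGFBI also missed the threshold without 41C replicate 3 (edgeR adjusted p = 0.0793 and 0.116), and COL4A1 with the length correction (0.0618). These lists were drawn up with earlier results of these data known, so the count is no independent evidence of a direction. Whether the targets differed from the 10 genes of the machinery was not tested.

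**Figure D5:**
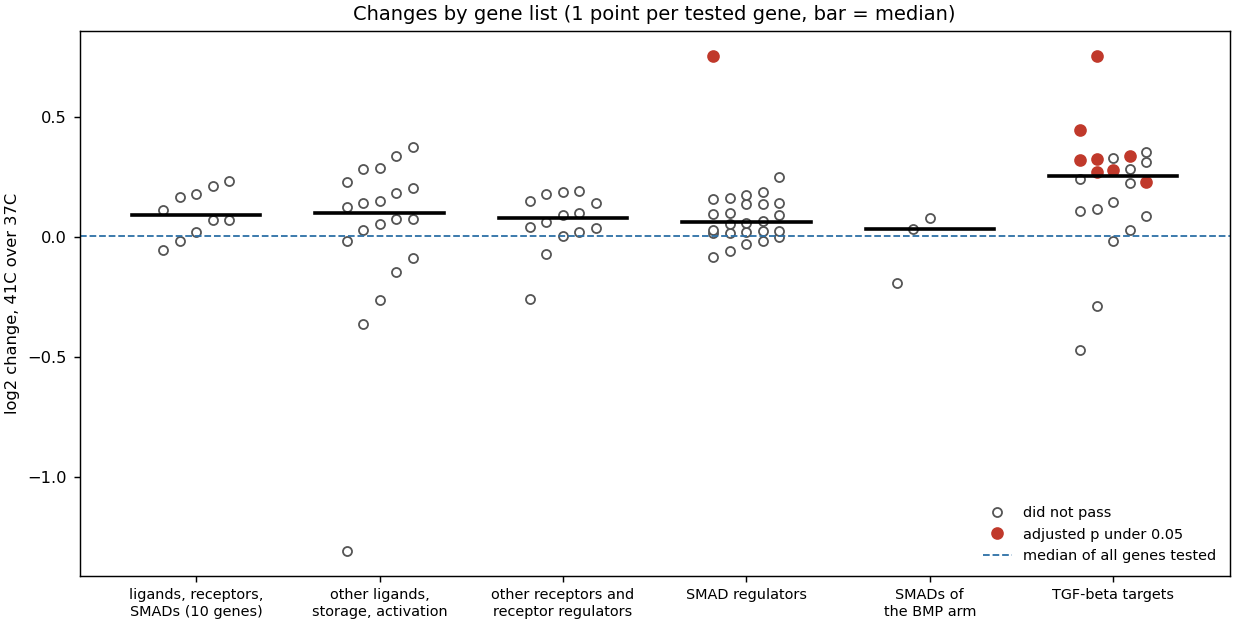
Log2 change at 41C over 37C (vertical axis) of each tested gene of 6 lists, with genes past an adjusted p of 0.05 filled in red, list medians as black bars and the median of all genes tested as a dashed line. The list of 10 genes has 0 filled points and the target list 8. PMEPA1 (0.75) and ITGB6 (0.28) each appear in 2 lists.

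Over all genes tested, log2 changes were larger for longer genes (Spearman's rho 0.25 across genes, which are not independent replicates). Of the 10 genes, TGFB1 (2103 bases) and SMAD7 (3698 bases) were shorter than the median tested gene and the other 8 longer. With each library corrected for its trend on length, the median log2 change of the 10 was 0.07 and that of all genes 0.01, and 0 of the 10 passed. Some counts may include reads of overlapping genes, since no source used here gives the strand setting of the counting. Exons of TGFB1 overlap those of HNRNPUL1 on the opposite strand over 215 bases, and exons of LTBP1 and SMAD3 overlap antisense genes over 249 and 182 bases. TGFB2 shares 1371 bases with the transcript TGFB2-OT1 on its own strand, and SMAD4 shares 967 bases with a gene on its own strand.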

How the data were processed

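Poly(A) libraries of 3 HaCaT samples at 41C and 3 at 37C were compared. Per the labels' protocols, mirVana reagents were used for RNA and a TruSeq Stranded mRNA kit for the libraries. The submitters' processing notes list Trimmomatic 0.36, HISAT2 and the build GRCh38.p13. The read counter and its annotation are not given in the sources consulted. The deposited table holds whole-number counts per gene symbol, not normalized. The deposited FPKM values equalled the count per kilobase of 1 length per gene and per 1000000 counts of the library, within 0.01% for 100% of nonzero values, and were used for gene lengths and alternative fits. Every per-sample column was used.

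Counts were filtered with filterByExpr (12056 of 15379 genes kept), scaled with TMM factors and tested with the robust quasi-likelihood test of edgeR 4.0.16 in R 4.3.3, two-sided, with temperature as the only term. The Benjamini-Hochberg adjustment ran over all genes tested, with a threshold of 0.05. SE was the log2 coefficient divided by the square root of its F statistic. Ratios were compared with exact permutation tests. Alternatives were DESeq2 1.42.0, limma 3.58.1 (voom, log2(FPKM + 1) and log2(FPKM + 0.1)), other scaling factors and filters, a replicate block, a spline correction (4 degrees of freedom) for gene length, and each library left out.

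Positions come from GENCODE release 29 (GRCh38), and promoter windows from RefSeq (GRCh38.p14), where all 10 symbols matched. The 10 genes and the lists were chosen with earlier results of these data known. The text names all 10, the genes past the threshold in each list (up to 6) or the 3 with the smallest p, and 13 genes for their role; others are said to be named after their values were seen. Some genes that this rule names are not reported here. The number of libraries limits the precision: a difference of 3 libraries against 3 relies on the spread shared across genes.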

Additional observations from a re-analysis of the deposited data

How the results depend on the processing

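Each tested gene named from the 10 or the pathway lists was refitted under 17 alternatives. Values for LTBP3 and LTBP4 are not given, and the CPM filter left TGFB3 and INHBB out of 1. Of the 10 machinery genes, only TGFB1 and TGFB2 passed in any, both without 37C replicate 3 (2 genes; 0 to 2 over the libraries left out). Directions turned for TGFBR1, at -0.0020 and -0.0035 with log2(FPKM + 1) and log2(FPKM + 0.1), and, over the libraries left out, for TGFBR1 (-0.047 to 0.110), LTBP1 (-0.280 to 0.110), SMAD5 (-0.015 to 0.198), SMAD1 (-0.026 to 0.068), TGFB3 (-0.586 to 0.166), INHBA (-0.172 to 0.237), GDF11 (-0.214 to 0.031) and the ratio of TGFBR2 to TGFBR1 (-0.023 to 0.097). None of these was called. The causes were not tested.

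The 131 genes called were 284 with no filter, 11 with log2(FPKM + 1) and 40 with log2(FPKM + 0.1), and 5 to 805 over the libraries left out. With upper-quartile factors the split was 57 higher and 53 lower, against 99 and 32. Other ligands past the threshold numbered 0, against 3 with DESeq2, 3 with no filter, 1 with the gene length correction and 0 to 3 over the libraries left out. SMAD regulators numbered 1, against 2 with no filter and 1 to 4 over the libraries left out. Targets numbered 8, against 2 and 5 with log2(FPKM + 1) and log2(FPKM + 0.1) and 1 to 14 over the libraries left out.

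Whether the replicate numbers pair the libraries is not stated in the labels. Deviations of same-numbered libraries correlated at 0.08, -0.02 and 0.08, and those of differently numbered libraries at -0.14 to 0.07. The replicate block called 438 genes (341 with the length correction), 4 other ligands (4 with it), 1 receptor-level gene, 3 SMAD regulators and 0 of the 10 machinery genes. Of the 10 machinery genes, depth limits LTBP1 most, at 17 to 27 counts per library; TGFB3 (11 to 27) and INHBB (2 to 19) were as low or lower.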
